A study of Mus musculus with 105 samples.

Results

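The poly(A) tails of maternal mRNAs were compared between the mouse full-grown oocyte (FGO), which is held at the prophase of meiosis I and no longer transcribes, and the mature oocyte at metaphase of meiosis II (MII), the stage that is fertilised. The genes were chosen by availability alone. A gene entered a comparison when its deposited tail length, in nucleotides (nt), was above 0 in the FGO library and in the MII library set against it, and 0 was treated as no value, not as a tail of no length. A wild-type MII library gave 224 genes, a Btg4 Het MII library gave 580 genes, and 166 genes had a value in all 3 libraries, out of 6443 genes with a value in any of the 5 tail libraries.

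These 3 libraries are part of a series of 105 samples that also holds ribosome footprints and mRNA of oocytes and embryos. The FGO library and the first MII library were wild type. The second MII library carried the Btg4 Het genotype, so it is a second measurement of the stage in oocytes of another genotype and not a replicate of the first. Oocytes came from C57BL/6 females 8 or 5 weeks old injected with 5 IU each of the gonadotropins PMSG and hCG, and the labels do not say which age gave which library. The labels call the FGO library "Full-grown oocyte SN", an abbreviation they do not spell out, and they give neither the number of oocytes pooled nor the animals. Each group was 1 library. No test could be run on the tails and no p-value is given. A tail counted as longer or shorter when the MII value differed from the FGO value by at least 1.5-fold, and the direction had to be shared by both MII libraries before a gene was counted as longer or shorter at the stage.

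Transcription stops before an oocyte resumes meiosis, and which proteins it makes during maturation is set largely through the tails of mRNAs it already holds. Dormant messages stored with short tails carry cytoplasmic polyadenylation elements in their 3′ ends. When CPEB1 bound there is phosphorylated, the tail is extended and the message becomes well translated. Other messages lose their tails to the CCR4-NOT deadenylase, whose recruitment in the mature oocyte depends on the adaptor BTG4, and a message with a very short tail is poorly translated and prone to decay. A Btg4 heterozygote retains 1 intact allele of that adaptor.

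The tail libraries carried the mRNAs of oocytes. All 8 oocyte markers examined (Zp1, Zp2, Zp3, Gdf9, Bmp15, Ooep, Nlrp5 and Dppa3) had a tail value in the FGO library, 3 of them in the wild-type MII library and 5 in the Btg4 Het MII library. Of 26 markers of granulosa, cumulus and theca cells, 4 had an FGO value (Cyp11a1, Inha, Nr5a2 and Serpine2), none had a wild-type MII value, and Serpine2 alone had a Btg4 Het MII value. None of 16 blood and immune markers had a value in any of the 3 libraries. A tail length is not an abundance, so these counts say only which messages were read, and the part of other cells in the results was not tested.

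Tails of different genes were further apart in MII than in FGO. Across the 166 genes valued in all 3 libraries, the median tail was 55.8 nt in the FGO library, 48.3 nt in the wild-type MII library and 67.5 nt in the Btg4 Het MII library. The spread between genes was 13.6 nt (SD over genes) in FGO, against 29.4 nt in wild-type MII and 30.1 nt in Btg4 Het MII. In FGO 3 genes had tails under 30 nt and 1 had a tail of at least 100 nt. In wild-type MII there were 15 and 12 such genes, and in Btg4 Het MII there were 4 and 26. Both ends of the distribution were therefore fuller in the wild-type MII library, and the long end was fuller in both. The number of reads behind each value is unknown, and its part in this spread was not tested.

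**Figure D1:**
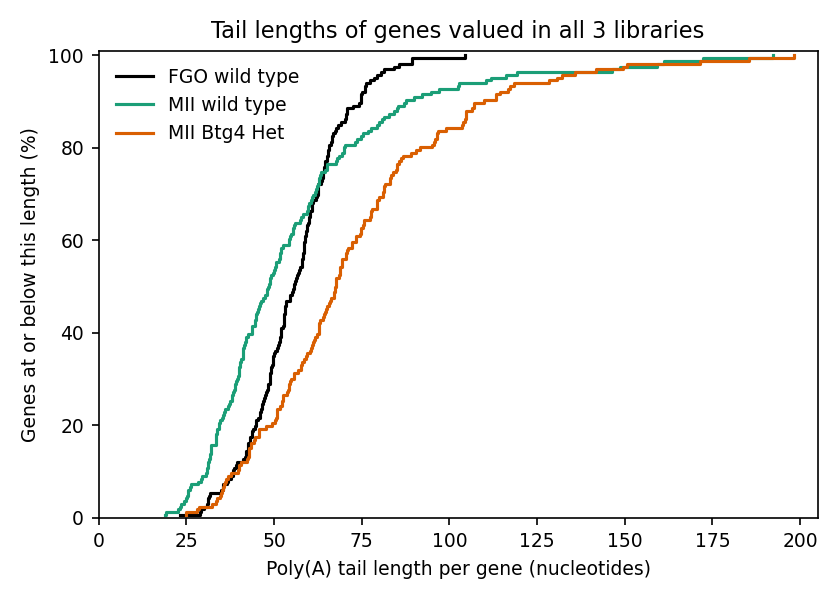
Cumulative share of the 166 genes (vertical axis, %) with a tail at or below the length on the horizontal axis (nucleotides), for the 3 libraries named in the key. The FGO curve is steep around its median of 55.8 nt, while both MII curves are spread out, with 12 genes (MII wild type) and 26 genes (MII Btg4 Het) at or beyond 100 nt.

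A gene's place in the FGO order of tail lengths did not carry over to MII. Over the 166 genes, Spearman's rho was -0.11 between the FGO tail and the wild-type MII tail and -0.22 between the FGO tail and the Btg4 Het MII tail. Between the wild-type and Btg4 Het MII libraries it was 0.53 over the same genes. Over all genes of each comparison the FGO tail and the MII tail had a rho of -0.11 in the wild type (224 genes) and -0.16 in the Btg4 Het (580 genes). The 2 MII libraries thus ordered the genes more alike than either did with FGO. These are descriptions over genes, which share their libraries and are not independent.

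The direction of the typical gene depended on which MII library was used. Against wild-type MII, 45 of 224 genes were longer by at least 1.5-fold (20.1% of the genes compared), 73 were shorter (32.6%) and 106 lay within 1.5-fold. The median difference was -7.58 nt (median log2 ratio -0.22). Against Btg4 Het MII, 257 of 580 genes were longer (44.3%), 63 were shorter (10.9%) and 260 lay within 1.5-fold, with a median difference of 20.5 nt (median log2 ratio 0.47). Dividing each library by its own median, which shifts the wild-type ratios up by 0.22 and the Btg4 Het ratios down by 0.42 on the log2 scale, gave 60 longer (26.8%) and 53 shorter genes (23.7%) in wild-type MII. In Btg4 Het MII it gave 151 longer (26%) and 131 shorter (22.6%). Division by the medians brings the 2 counts near each other by construction, so these values show how far the calls depend on it and nothing of where the offset comes from. Genotype and library cannot be told apart as the source of the offset, because each genotype had 1 library here.

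Where both MII libraries had a value, 23 of 166 genes were longer in both (13.9%), 16 were shorter in both (9.64%) and none was longer in one and shorter in the other. With no threshold, 69 genes were higher in both MII libraries and 50 were lower in both. Another 43 were higher in Btg4 Het and lower in wild type, and 4 were the reverse. Both comparisons use the same FGO library, so an error in an FGO value would push a gene the same way in both. The 8 genes longer in wild type alone and the 32 longer in Btg4 Het alone, together with 29 and 4 shorter ones, stayed within 1.5-fold in the other library. With libraries divided by their medians over the 166 genes, 6 of the 23 longer genes (Dusp14, Ezh2, Oosp1, Pole4, Rbm38 and Usp19) and 2 of the 16 shorter ones (Gtf2b and Nlrp9a) did not pass the line in both. With medians over each comparison Arid1a did not either (log2 0.45 in Btg4 Het MII).

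**Figure D2:**
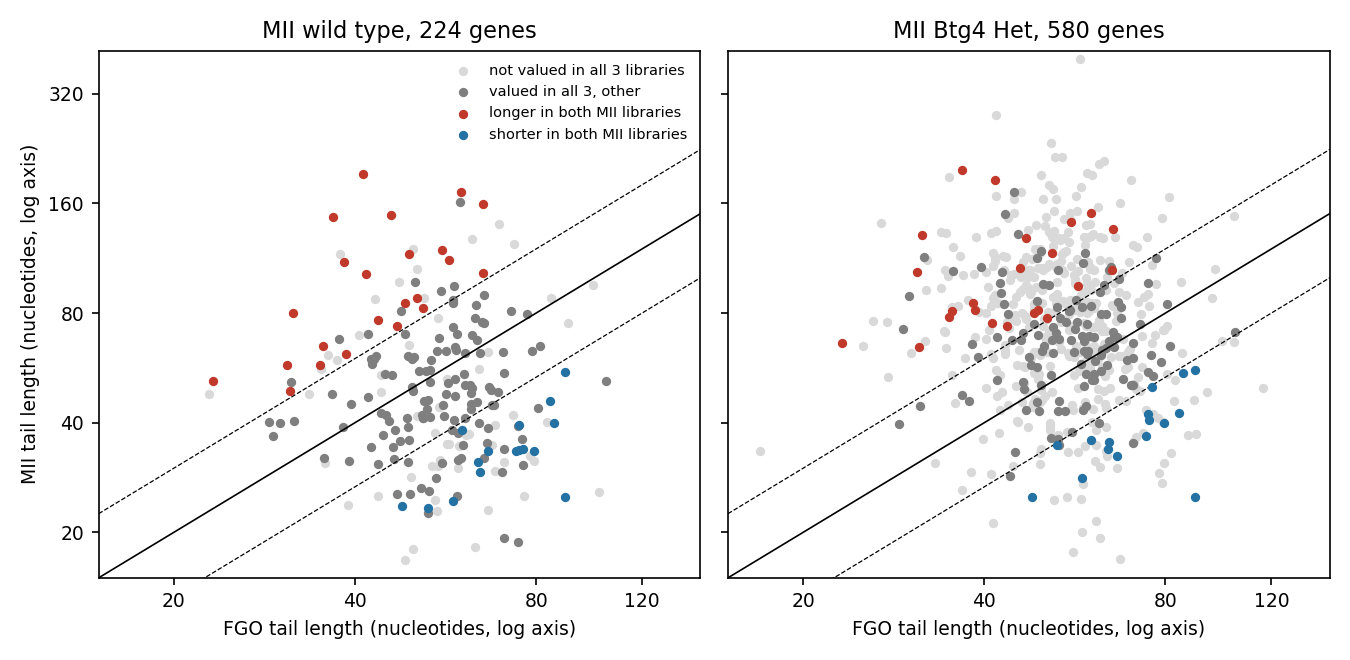
Tail length per gene in FGO (horizontal) against MII (vertical), both in nucleotides on log axes, for the wild-type MII library (left, 224 genes) and the Btg4 Het MII library (right, 580 genes). The solid line marks equal lengths and the dashed lines 1.5-fold; the 23 red genes lie above the upper dashed line and the 16 blue genes below the lower one in both panels, and the right-hand cloud sits higher.

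How far apart 2 libraries of one stage can lie sets the scale for these values. The wild-type and Btg4 Het MII libraries shared 170 genes, whose tails were longer in Btg4 Het in 125 of them, by a median log2 of 0.39; 70 genes (41.2%) differed by at least 1.5-fold. The 2 Btg4 KO MII libraries, the tail group of the series that has a repeat, shared 636 genes and differed by a median absolute log2 of 0.35, with 171 genes (26.9%) past 1.5-fold and a 95th percentile of 1.20. A single-library difference of 1.5-fold was therefore common between libraries of the same stage. Of the 23 longer and 16 shorter genes, 5 longer genes (Omt2a, Bcl2l10, H1foo, Tcl1 and Tet3) and 1 shorter gene (Eif1b) went beyond that 95th percentile in both (3.01% and 0.602% of the 166 genes). The values just inside the 1.5-fold line were close to those outside it. The 5 nearest longer genes on each side reached up to 1.52-fold inside and down to 1.47-fold outside in Btg4 Het MII, and up to 1.59-fold inside and down to 1.41-fold outside in wild-type MII.

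The 23 genes longer in both MII libraries began with short tails. Their median was 43.7 nt in FGO (range 23.2 to 65.4), 87.7 nt in wild-type MII (48.7 to 192) and 95.1 nt in Btg4 Het MII (64.5 to 198). The 16 genes shorter in both had a median of 74.6 nt in FGO (47.9 to 89.5), 33.5 nt in wild-type MII (23.3 to 55.3) and 36.3 nt in Btg4 Het MII (25.0 to 55.7). The FGO value is the denominator of each ratio, so a low start for the first set and a high start for the second is in part built into the choice, and nothing is read from it.

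**Figure D3:**
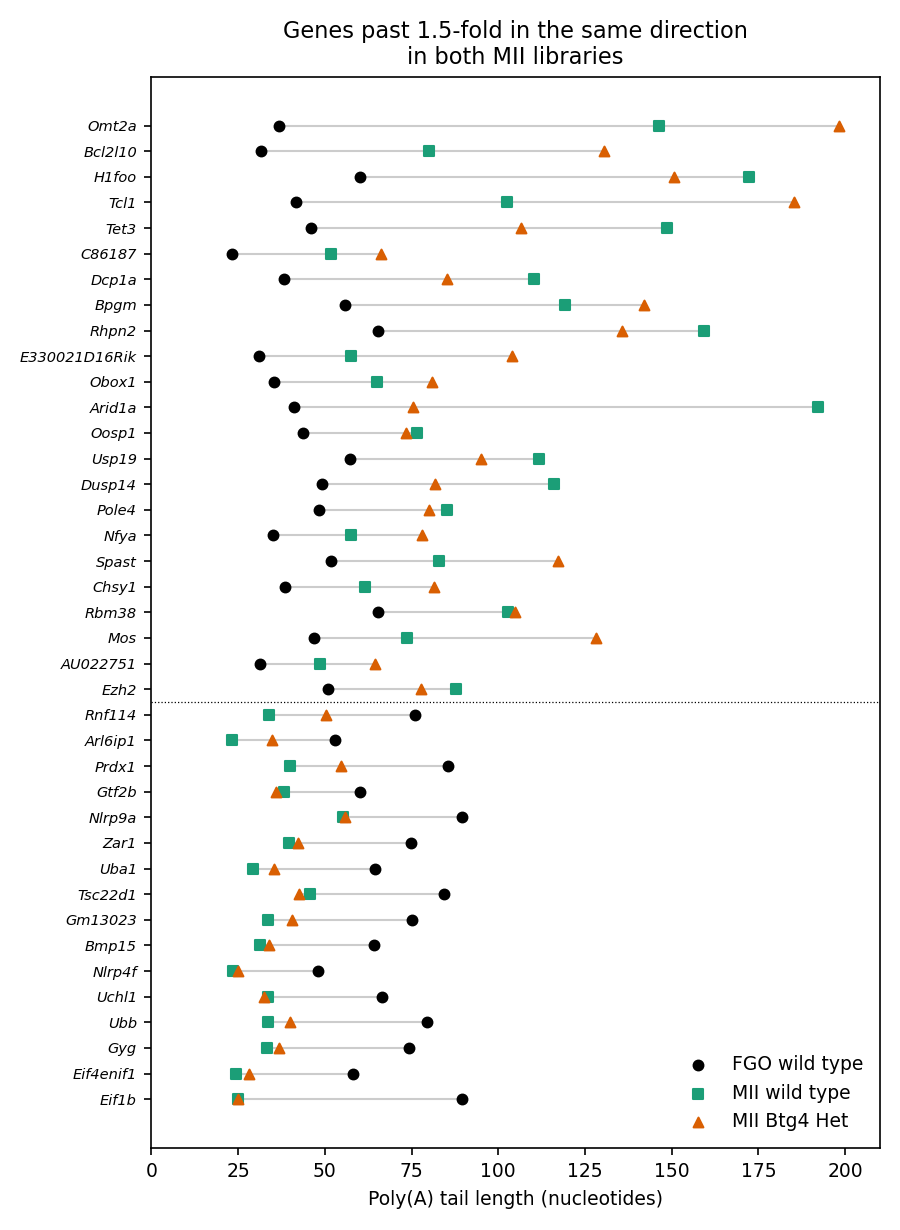
Tail length in nucleotides (horizontal axis) of each gene past 1.5-fold in the same direction in both MII libraries: black circles are FGO wild type, green squares MII wild type and orange triangles MII Btg4 Het, 1 library each. Above the dotted line are the 23 genes whose MII tails are longer, led by Omt2a at 36.8 nt in FGO and 146 and 198 nt in MII; below it are the 16 shorter ones, ending with Eif1b.

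Among the longer genes, several are oocyte-restricted messages. Omt2a, an oocyte maturation gene of unknown biochemical function, had a tail of 36.8 nt in FGO, 146 nt in wild-type MII and 198 nt in Btg4 Het MII, which is 3.98-fold and 5.39-fold longer. Tcl1, the founder of a family of AKT kinase co-activators abundant in the egg, went from 41.7 nt to 103 nt and 185 nt (2.46-fold and 4.45-fold). Bcl2l10, a BCL-2 family member prominent in the oocyte, went from 31.6 nt to 79.99 nt and 131 nt (2.54-fold and 4.14-fold). In each of the 3 both MII tails stood well clear of the FGO tail and the Btg4 Het tail was the longer. Obox1, an oocyte homeobox gene, went from 35.4 nt to 65.1 nt and 81.0 nt, and Oosp1, which encodes an oocyte-secreted protein, from 43.7 nt to 76.7 nt and 73.5 nt. C86187 and E330021D16Rik had the shortest FGO tails of the set with AU022751 and Bcl2l10. C86187 read 23.2 nt in FGO, 51.9 nt in wild-type MII and 66.1 nt in Btg4 Het MII, and E330021D16Rik read 30.9, 57.5 and 104 nt. Several of these genes (Omt2a, Tcl1, Obox1, C86187 and E330021D16Rik) have close copies in the mouse genome, and how reads were divided between copies is unknown here, so these values are uncertain.

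Other longer genes encode chromatin proteins, which are set out here by role and not as a tested group. H1foo, the oocyte linker histone that loads onto sperm chromatin, had a tail of 60.1 nt in FGO, 172 nt in wild-type MII and 151 nt in Btg4 Het MII (2.87-fold and 2.51-fold). Tet3, the dioxygenase that oxidises 5-methylcytosine in the zygote, had 45.9 nt, 149 nt and 106 nt (3.24-fold and 2.32-fold). Here the wild-type MII tail was the longer in both genes, so the higher median of the Btg4 Het library did not carry through to every message. Ezh2, the catalytic subunit of the Polycomb complex PRC2, went from 50.8 nt to 87.7 nt and 77.6 nt. AU022751, also known as Ezhip, an inhibitor of that enzyme, went from 31.2 nt to 48.7 nt and 64.5 nt. Arid1a, a subunit of the BAF remodelling complex, had 41.2 nt in FGO, 192 nt in wild-type MII and 75.3 nt in Btg4 Het MII; these are 4.67-fold and 1.83-fold, and the 2 MII values differ from each other more than the lower one differs from FGO.

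The other longer genes have varied roles. Mos, the kinase that holds the egg at metaphase II, went from 47.0 nt to 73.6 nt and 128 nt (1.57-fold and 2.73-fold), and is a classical target of cytoplasmic polyadenylation. Dcp1a, the activator of the decapping enzyme, went from 38.3 nt to 110.3 nt and 85.2 nt (2.88-fold and 2.22-fold). Rbm38, an RNA-binding protein, went from 65.2 nt to 103 nt and 105 nt. Bpgm, the enzyme that makes 2,3-bisphosphoglycerate, went from 55.8 nt to 119 nt and 142 nt and Rhpn2 from 65.4 nt to 159 nt and 136 nt. These last 3 genes were above the median of all FGO tails, 54.1 nt, at the start and above 100 nt in both MII libraries. The remaining 6 longer genes, Usp19, Dusp14, Pole4, Nfya, Spast and Chsy1, read between 57.7 and 116 nt in wild-type MII and between 77.9 and 117 nt in Btg4 Het MII.

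The shorter genes had median ribosome footprints in FGO of 233 FPKM (range 23.2 to 2567), a unit scaled for length and depth. The median was 44.5 FPKM for the genes valued in all 3 libraries. The shorter genes were chosen in part through long FGO tails. Over the genes valued in all 3 libraries the FGO tail had a rho of 0.54 with the FGO footprint level. A high FGO level is therefore in part built into the choice. Eif1b, a close relative of the start-codon scanning factor eIF1, went from 89.4 nt in FGO to 25.0 nt in both wild-type and Btg4 Het MII, the lowest ratio in the set (log2 ratio -1.84 in each). Eif4enif1, which encodes the 4E-T protein that holds the cap-binding factor in repressed particles, went from 58.1 nt to 24.3 nt and 28.2 nt. Zar1, an RNA-binding protein of the same storage particles, went from 74.9 nt to 39.5 nt and 42.3 nt. For these 3 genes the 2 MII libraries gave nearly the same length.

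Of the shorter genes, 4 act in the ubiquitin pathway; they are set out by role and not as a tested group. Ubb, a polyubiquitin gene, went from 79.4 nt to 33.5 nt and 40.0 nt. Uchl1, an abundant oocyte ubiquitin hydrolase, went from 66.5 nt to 33.5 nt and 32.4 nt. Uba1, the ubiquitin-activating enzyme, went from 64.4 nt to 29.2 nt and 35.4 nt, and Rnf114, a ubiquitin ligase, from 76.0 nt to 33.8 nt and 50.2 nt. All 4 ended below the FGO median in both MII libraries.

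The rest of the shorter genes have varied roles. Bmp15, the growth factor that the growing oocyte secretes to the granulosa cells, went from 64.1 nt to 31.2 nt and 33.8 nt. Nlrp4f went from 47.9 nt to 23.6 nt and 25.0 nt, and Nlrp9a, of the same oocyte-expressed NLR family, from 89.5 nt to 55.3 nt and 55.7 nt. Gm13023, which has close copies, went from 75 nt to 33.6 nt and 40.7 nt. Gyg, the protein primer of glycogen synthesis, went from 74.2 nt to 33.4 nt and 36.8 nt. Tsc22d1, a leucine zipper protein, went from 84.3 nt to 45.8 nt and 42.5 nt, and Prdx1, a peroxiredoxin, from 85.6 nt to 40.0 nt and 54.7 nt. Gtf2b and Arl6ip1 were the other 2, at 38.2 and 23.3 nt in wild-type MII and 35.8 and 34.7 nt in Btg4 Het MII. Among the 166 genes, the 5 shortest mean tails over both MII libraries belonged to Nlrp4f, Eif1b, Eif4enif1, Arl6ip1 and Ywhag, a 14-3-3 gene that read 52.9 nt in FGO, 22.6 nt in wild-type MII and 36.0 nt in Btg4 Het MII; the 5 longest belonged to Omt2a, H1foo, Rhpn2, Tcl1 and Arid1a.

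Gene lists by role differed from each other, and are described by counts to be read beside the background shares given above. The list of maternal mRNAs known or seen to gain translation in maturation stood high in both libraries. In wild-type MII, 8 of its 13 valued members were longer and none shorter (median log2 0.65), and in Btg4 Het MII 17 of 21 were longer and none shorter (median log2 1.30). Of its 12 members valued in all 3 libraries, 7 were longer in both. Part of the list was drawn up knowing these oocytes' footprints, so its direction is not independent evidence.

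Its members did not all move alike. Btg4 itself, the adaptor that accumulates in maturation, had a tail of 29.3 nt in FGO, 36.9 nt in wild-type MII and 72.1 nt in Btg4 Het MII, so 1.26-fold and 2.46-fold. Bub1b, a spindle checkpoint kinase, had 42.7, 58.1 and 104 nt. Ccnb1, which encodes cyclin B1 and is the textbook message polyadenylated at meiotic resumption, had 45.5 nt in FGO, 40.4 nt in wild-type MII and 132 nt in Btg4 Het MII. For Ccnb1 the 2 MII libraries thus disagreed on the direction, and its wild-type tail was within 1.5-fold of FGO. Spin1, with 62.6, 69.4 and 79.4 nt, and Zbed3, with 55.2, 68.5 and 81.1 nt, stayed within 1.5-fold in both.

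Most other members had a Btg4 Het value alone, with no second library beside it. Obox5 went from 41.9 nt to 168 nt, Cdc20, the anaphase-promoting complex activator, from 52.1 nt to 175 nt, and Oosp3 from 33.9 nt to 134 nt. Plat, the tissue plasminogen activator and a classical dormant oocyte message, went from 33.9 nt to 93.7 nt. Eed, a PRC2 subunit, went from 25.1 nt to 64.9 nt, Cnot6l, a deadenylase of CCR4-NOT, from 40.3 nt to 80.3 nt, and Pabpn1l from 34.5 nt to 64.1 nt. The exceptions were Ccno, from 63.6 nt to 45.0 nt, and Tpx2, from 95.6 nt to 88.2 nt, both within 1.5-fold and lower than in FGO. Omt2b, valued in wild-type MII alone, went from 36.0 nt to 61.3 nt.

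A list named for the oocyte families of Oas1, Tcl1 and Omt2 overlapped that list. It also held genes outside those families, among them Bcl2l10, AU022751, C86187, C87499 and C87977. Tails were longer in 7 of 9 valued members of the list in wild-type MII and 8 of 11 in Btg4 Het MII. In each, 1 was shorter (medians log2 0.90 and 1.72). These values describe the list and not the named families alone. Listed genes that went the other way were Oas1e and C87977. Oas1e read 51.5 nt in FGO, 26.4 nt in wild-type MII and 36.3 nt in Btg4 Het MII. C87977 read 89.9 nt in FGO and 37.1 nt in Btg4 Het MII.

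Of 35 deadenylation and decay genes with an FGO tail, 10 had an MII tail (28.6%) and 25 had none. The share over all genes with an FGO tail was 10.0%. In wild-type MII 2 of 5 were longer and 1 shorter (median log2 0.54), and in Btg4 Het MII 7 of 9 were longer and none shorter (1.11), or 5 of 9 with libraries divided by their medians. Of 4 valued in all 3 libraries, Dcp1a alone was longer in both. Besides Dcp1a and Btg4, Edc4, a decapping scaffold, read 48.4 nt in FGO, 70.2 nt in wild-type MII and 74.7 nt in Btg4 Het MII. Lsm14b, a translational repressor, was the shorter one in wild type, at 66.4, 35.2 and 68.6 nt.

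The list of polyadenylation and tail-binding factors was small and mixed. In wild-type MII 3 of 4 valued members were shorter and 1 longer, and in Btg4 Het MII 2 of 5 were shorter and 2 longer, with medians of log2 -0.86 and -0.38. Only Zar1 and Eif4enif1 had a value in all 3 libraries, and both were shorter, as given above. Pabpn1, the nuclear tail-binding protein, read 40.6 nt in FGO and 69.8 nt in wild-type MII.

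Chromatin genes were longer in 4 of 9 valued members in wild-type MII and 7 of 16 in Btg4 Het MII, with none shorter in either (medians log2 0.55 and 0.50), and 3 of the 9 valued in all 3 libraries (H1foo, Tet3 and Ezh2) were longer in both; with libraries divided by their medians Ezh2 was no longer past the line in Btg4 Het MII (log2 0.19). Dnmt1, the maintenance DNA methyltransferase, read 59.7 nt in FGO, 161 nt in wild-type MII and 69.3 nt in Btg4 Het MII, so it was longer in wild type alone. Rbbp7, a histone-binding subunit of PRC2 and deacetylase complexes, read 42.6, 59.7 and 90.6 nt. Anp32b, a histone chaperone, read 58.2, 85.1 and 83.3 nt, just under 1.5-fold in both. In Btg4 Het MII this list lay close to all genes compared. Its 7 of 16 longer members stood beside 257 of 580 (44.3%), and its median log2 of 0.50 beside 0.47. With libraries divided by their medians its Btg4 Het median was log2 0.07.

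Meiotic cell cycle genes were longer in 1 and shorter in 1 of 5 valued members in wild-type MII, and longer in 8 and shorter in 1 of 12 in Btg4 Het MII (medians log2 0.07 and 1.02). The kinetochore genes Nuf2 and Ndc80, the passenger complex gene Cdca8 and the Cdk-binding gene Cks1b were among the longer ones in Btg4 Het MII, at 72.1, 82.3, 129 and 94.5 nt from 40.7, 48.5, 38.8 and 40.5 nt in FGO. Pttg1, which encodes securin, stayed at 53.3, 55.9 and 67.7 nt. Plk1 was the shorter one in wild-type MII, from 57.3 nt to 35.0 nt.

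Zona pellucida and oocyte growth genes split in both libraries, with 3 longer and 2 shorter of 8 in wild-type MII and 9 longer and 4 shorter of 16 in Btg4 Het MII. The list's median was -0.01 in wild-type MII, which turns to 0.21 with libraries divided by their medians, and 0.73 in Btg4 Het MII. Zp3, a main zona pellucida glycoprotein, went from 82.6 nt in FGO to 45.9 nt in Btg4 Het MII and Zp1 from 80.4 nt to 54.5 nt. Gdf9, the partner of Bmp15 in signalling to granulosa cells, read 64.5 nt in FGO, 62.3 nt in wild-type MII and 105 nt in Btg4 Het MII, unlike Bmp15.

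Maternal-effect genes, with those of the subcortical maternal complex, were shorter in 4 and longer in 2 of 11 valued members in wild-type MII (median log2 -0.32), and shorter in 4 and longer in 2 of 14 in Btg4 Het MII (median 0.05, which turns to -0.37 with libraries divided by their medians). Tle6 and Padi6, of the complex itself, went from 77.8 nt to 41.2 nt and from 85.3 nt to 62.3 nt in Btg4 Het MII and had no wild-type value. Dppa3, which protects the maternal genome from demethylation, read 78.6, 62.8 and 58.6 nt. Nlrp14 read 76.5 nt in FGO and 25.2 nt in wild-type MII. Trim28, a corepressor, went the other way, from 78.9 nt to 146 nt in Btg4 Het MII.

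Proteasome and ubiquitin genes were shorter in 6 of 8 valued members and longer in none in wild-type MII (median log2 -1.06), and shorter in 3 and longer in 4 of 14 in Btg4 Het MII (-0.14). Psmb2, a subunit of the core particle, went from 79.3 nt to 31.3 nt in wild-type MII. Translation factors were shorter in 3 of 5 in wild-type MII with none longer (-1.03), and shorter in 3 and longer in 2 of 10 in Btg4 Het MII (-0.15). Eif4a1, the initiation helicase, read 63.9, 45.6 and 57.7 nt and Btf3 read 44.1, 42.5 and 28.5 nt.

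**Figure D4:**
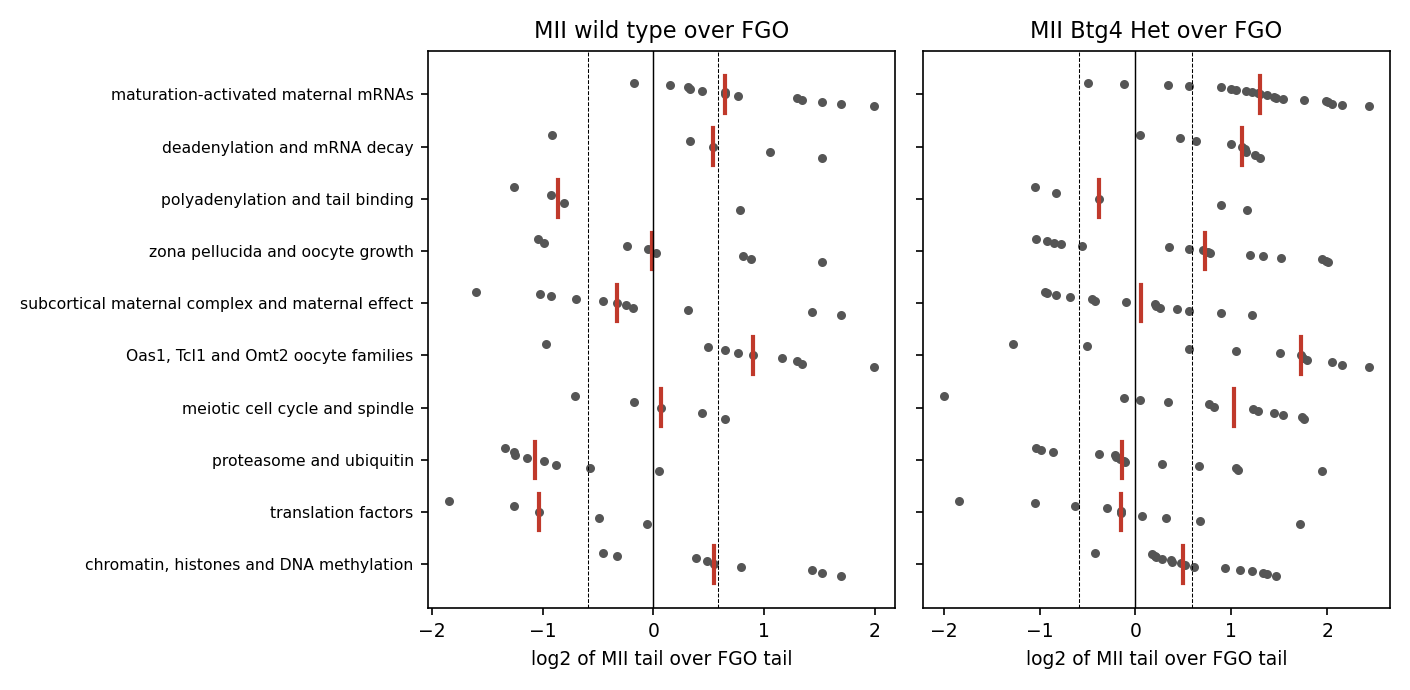
The log2 ratio of MII tail over FGO tail (horizontal axis) of each valued member of the 10 gene lists with at least 3 valued members in both comparisons, for wild-type MII (left) and Btg4 Het MII (right); points are genes, red bars list medians and dashed lines 1.5-fold. Medians lie right of 0 in both panels for the lists of maturation-activated messages, decay factors, oocyte families, chromatin genes and meiotic cell cycle genes. The meiotic median is only 0.07 in wild-type MII. The line at 0 is not the level of all genes compared. Their median is -0.22 in wild-type MII and 0.47 in Btg4 Het MII. The chromatin median in Btg4 Het MII, 0.50, is close to that of all genes. Medians lie left of 0 in both for the lists of polyadenylation and tail-binding factors, proteasome and ubiquitin genes, and translation factors.

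The share of genes with an FGO tail that also had an MII tail was 10.0% over all genes and differed between the lists. Of 46 cytosolic ribosomal protein genes with an FGO tail (median 62.2 nt), 45 had no value in either MII library; only Rps15a had one, at 75.8 nt in FGO, 36.1 nt in wild-type MII and 61.5 nt in Btg4 Het MII. Of 46 nuclear-encoded respiratory chain genes with an FGO tail, 44 had no MII value. The other 2 were Atp5b, at 66.6, 38.6 and 85.8 nt, and Cox7a2, at 102 nt in FGO and 25.8 nt in wild-type MII. Chaperone and redox genes lacked an MII value in 38 of 40 and glycolysis, pyruvate and TCA cycle genes in 21 of 23. Other lists lay above the share of all genes, with an MII value in 17 of 72 proteasome and ubiquitin genes (23.6%) and 10 of 51 translation factors (19.6%). The ribosomal protein messages without an MII tail had a median mRNA level of 10.7 FPKM in Btg4 Het MII oocytes. FPKM is scaled for depth, so this level is relative to the other messages of the library and is not an amount per oocyte.

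The genes with an MII tail were thus a small and abundant subset. Of the 6353 genes with an FGO tail, 638 (10.0%) had a value in at least 1 of the MII libraries. Their FGO tails were like those of the other 5715 (medians 55.0 and 53.9 nt), but their median mRNA level in Btg4 Het MII oocytes was 97.7 FPKM against 8.68 FPKM. Among 644 genes with at least 100 FPKM, 310 (48.1%) had an MII tail. The counts above thus describe messages more abundant in MII than most, though 288 of the 580 genes of the Btg4 Het comparison, and not all, reached 100 FPKM. Genes with an MII value and no FGO value numbered 5 in wild type and 18 in Btg4 Het; among them Mtfr2 read 80.1 nt and 59.4 nt.

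The largest ratios of genes valued in FGO and Btg4 Het MII alone have no second library beside them. Arih1, a ubiquitin ligase, read 57.7 nt in FGO and 398 nt in Btg4 Het MII, and D6Ertd527e 41.9 and 279 nt. Fpgs, Bod1l, Zdhhc18 and Smagp read between 27.0 and 52.5 nt in FGO and between 141 and 234 nt in MII. At the other end, Bub3, a spindle checkpoint protein, read 67.2 nt in FGO and 16.9 nt in MII, and Usf2, Ddx19a, Vil1, Arpc2 and Imp4 ended between 17.7 and 27.3 nt.

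Ribosome footprints, measured in other oocytes of the same series, mostly lay on the same side as the tails. The footprint libraries came from 18 single FGO and 20 single MII wild-type oocytes whose animals the labels do not name, and values are means ± SD over oocytes in FPKM. MII oocytes 2 and 4 stood apart: their footprints had a Spearman's rho over genes of 0.68 and 0.67 with the mean FGO oocyte, against 0.37 to 0.55 for the other 18. With the mean of the other MII oocytes their rho was 0.692 and 0.661, against 0.499 to 0.660 for the other 18. Oocytes 2 and 4 thus had the highest values with both stages, and the source of this was not tested. The ratio was taken on the log2(FPKM + 1) scale, which understates changes of low genes. Of the 22 genes with longer tails in both MII libraries that could be matched to footprints, 21 had more footprints in MII, 19 of them by at least 2-fold, with a median log2 ratio of 4.46 (range -0.65 to 8.55). Of the 16 genes with shorter tails, 6 had more footprints in MII, 1 of them by at least 2-fold, and 8 had fewer by at least 2-fold; the median was -1.19 (range -2.65 to 1.16). Without MII oocytes 2 and 4 the 2 medians were 4.53 and -1.39. Among all 163 matched genes, 119 had more footprints in MII and the median was 1.17, with 54.6% at least 2-fold higher and 13.5% at least 2-fold lower. The 2 sets thus lay on opposite sides of the genes around them.

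Examples give the scale. Omt2a footprints had a lowest, median and highest value of 0, 0 and 90.9 FPKM over the FGO oocytes and of 915, 3610.3 and 5996 FPKM over the MII oocytes. Tet3 footprints had a lowest, median and highest value of 0, 0.96 and 18.8 FPKM over the FGO oocytes and of 27.6, 116 and 213 FPKM over the MII oocytes. Their means were 8.27 ± 22.1 and 3474 ± 1391 FPKM for Omt2a and 3.13 ± 4.74 and 114 ± 53.8 FPKM for Tet3, in FGO and MII. Tcl1 had means of 58.6 ± 59.3 and 8979 ± 4085 FPKM. H1foo stood at 571 ± 454 FPKM in FGO and at 4251 ± 1780 FPKM in MII. On the other side, Eif4enif1 footprints had a lowest, median and highest value of 5.75, 48.4 and 175 FPKM over the FGO oocytes and of 0, 3.88 and 51.8 FPKM over the MII oocytes. Bmp15 footprints had a lowest, median and highest value of 51.1, 449 and 2168 FPKM over the FGO oocytes and of 0, 51.9 and 560.4 FPKM over the MII oocytes. Uchl1 had means of 2567 ± 1693 and 683 ± 678 FPKM. The single oocytes of the 2 stages did not overlap for Omt2a and Tet3, and did for Eif4enif1 and Bmp15. These genes were picked as examples. The share of all genes without overlap is not given here, so nothing particular to them is read from it.

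Exceptions ran both ways. Arid1a was longer with footprints of 1.96 ± 1.84 FPKM and 2.27 ± 1.38 FPKM in the 2 stages, Chsy1 with 2.12 ± 2.43 and 2.15 ± 2.28 FPKM, and Spast with 12.3 ± 12.4 and 7.48 ± 5.52 FPKM. Nlrp4f was shorter with 70.1 ± 68.3 and 158 ± 57.9 FPKM, and Prdx1 with 609 ± 467 and 809 ± 420 FPKM. Spin1, whose tail stayed within 1.5-fold, and Ccnb1, whose wild-type tail did not lengthen, had footprint log2 ratios of 3.56 and 5.53. Btg4 footprints went up by a log2 of 7.27 with a wild-type tail only 1.26-fold longer.

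Over all 163 genes the mean log2 tail change of the 2 MII libraries and the footprint change had a Spearman's rho of 0.68. With each MII library alone it was 0.59 in the wild type (221 genes) and 0.61 in the Btg4 Het (572 genes). Without MII oocytes 2 and 4 the 3 values were 0.68, 0.59 and 0.62. In the Btg4 Het comparison, 230 genes had footprints at least 4-fold higher in MII on that scale; 164 of them had longer tails and 2 had shorter tails, and their median tail went from 49.1 to 93.2 nt. Of 18 genes with footprints at least 4-fold lower, 11 had shorter tails and 1 had a longer tail, with medians of 72.5 and 40.6 nt. In the wild-type comparison the 79 genes with higher footprints held 32 longer and 3 shorter tails, and the 9 with lower footprints held no longer and 7 shorter tails. The sorting of genes by footprints thus separated the tail changes in both libraries, also in the wild type, where 130 of 224 tails were lower than in FGO.

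The mean log2 tail change had a rho of 0.11 with the mRNA level in Btg4 Het MII oocytes over the same 163 genes. The FGO tail taken alone had a rho of -0.58 with the footprint change, and the mean MII tail taken alone one of 0.51. The FGO footprint level is the denominator of the footprint change, and the part of each end of the tail ratio was not tested. Within a stage, the FGO tail had a rho of 0.54 with the FGO footprint level over these 163 genes and of 0.26 over all 6255 genes with both values. The mean MII tail had a rho of 0.23 with the MII footprint level over the 163 genes, and the Btg4 Het MII tail one of 0.26 over 588 genes. Footprint levels in FPKM hold both mRNA abundance and translation, and the stage comparison has no matched FGO mRNA in use here. The 26 follicle cell markers summed to between 3.95 and 198 FPKM per FGO footprint library and between 85.8 and 260.0 FPKM per MII library. Has2 was at 0 in every oocyte, and Fshr, Tnfaip6 and Fst in every MII oocyte. The 8 oocyte markers summed to at least 849 FPKM in every oocyte. Among MII oocytes Serpine2 alone averaged 120 FPKM, beside a median follicle marker sum of 148 FPKM. Among FGO oocytes it averaged 4.31 FPKM, beside a median sum of 92.5 FPKM. The higher MII sums thus rest largely on Serpine2 and do not show a rise of the follicle cell markers as a set. Blood and immune markers ran from 0 to 789 FPKM in FGO and 0 to 203 FPKM in MII, over 14 matched genes. Their part in the footprint values was not tested.

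**Figure D5:**
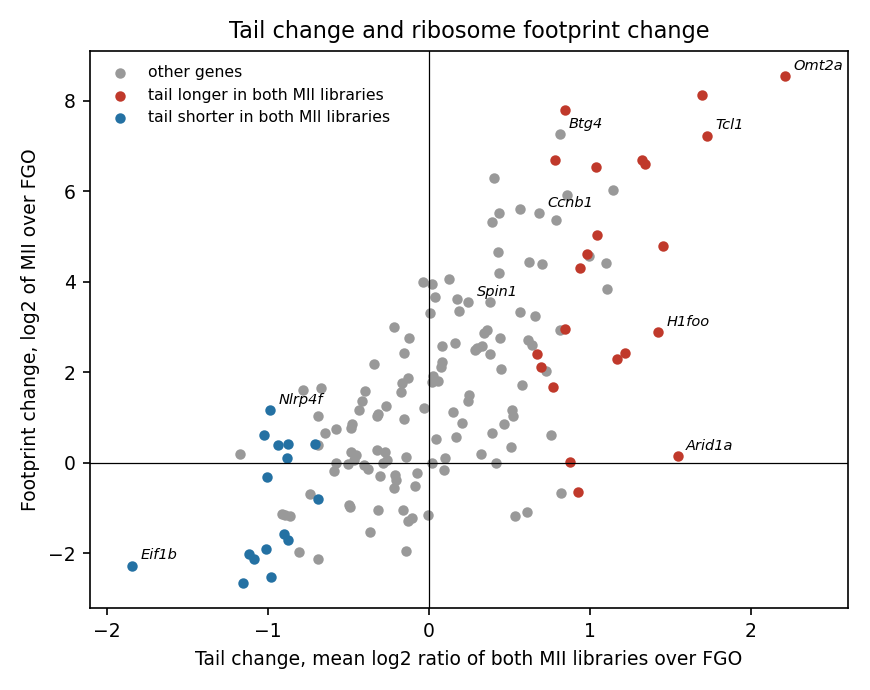
Mean log2 tail ratio of both MII libraries over FGO (horizontal axis) against the log2 ratio of mean ribosome footprints in single MII over single FGO oocytes (vertical axis, on FPKM + 1), for 163 genes. Red genes (longer tails in both) lie mostly high, blue genes (shorter tails in both) low, and Arid1a and Nlrp4f are exceptions; rho over genes is 0.68.

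The same genes can be read in Btg4 KO MII oocytes. In the authors' merged column of the 2 Btg4 KO libraries, the longer genes had a median tail of 90.7 nt and 20 of 22 valued ones were above their FGO tail. The shorter genes had a median of 37.7 nt there, and 3 of 16 were above their FGO tail. Both sets were chosen by a ratio over the same FGO tails. The counts above FGO are therefore in part built into the choice and are not independent evidence. The same count over all genes is not given here.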

How the data were processed

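Tail lengths were taken as the authors deposited them, in 1 table of nucleotides per gene and library (unit other than a count or a log value). Per the labels' protocols, total RNA was end-extended, RNAs longer than 200 nt were kept, reverse transcribed and sequenced on a PacBio Sequel II. Which program called the tails, from how many reads and with which average was not given in the sources used here. Depth behind a value is therefore unknown. Footprint and mRNA levels were deposited by the authors as FPKM. The submitters' processing notes name Cufflinks 2.2.1, STAR 2.5.3a, Bowtie2 2.2.2, cutadapt 1.14 and Trim Galore 0.4.2, with mm9 and hg19 as builds, and assign no role to any.

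From these, ratios, medians and counts were computed with Python 3.11.15, pandas 2.3.3 and scipy 1.17.1, after 1 repeated row was dropped. Footprints used a pseudocount of 1 FPKM. The script was tested on simulated data. Names matched for 163 of 166 genes. The genes and lists were chosen with earlier results of these data known. Genes named one by one are Btg4, the 12 per direction with the largest smaller of the 2 ratios among genes changed in both libraries, up to 5 per list, valued members of the maturation list, and the 6 largest ratios per direction seen in Btg4 Het alone, and the 5 longest and 5 shortest mean MII tails; others named in a list or as an exception were chosen after their values were seen. Alternatives were other folds, a difference of 20 nt, division by library medians, an abundance minimum, another pseudocount, a footprint minimum of 1 FPKM, medians over oocytes, footprints without MII oocytes 2 and 4 and, added after seeing the data, the 95th percentile of the Btg4 KO pair. No sequence is shown.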

Additional observations from a re-analysis of the deposited data

How the results depend on the processing

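Each tail group compared here was 1 library, so leaving out a replicate was not possible, and the 1.5-fold line is a choice. At a lower line, a log2 ratio of 0.32, 107 genes were shorter in Btg4 Het MII, 38 longer in both MII libraries, 30 shorter in both and 13 changed in opposite directions. At 2-fold, 20 were longer and 35 shorter in wild-type MII, 152 longer and 23 shorter in Btg4 Het MII, and 9 longer and 3 shorter in both. With a difference of 20 nt in place of a fold, 2 genes (Gm13084 and Ninj1, shorter in wild type and longer in Btg4 Het) went in opposite directions, and 22 of the 23 longer and 15 of the 16 shorter genes remained. With libraries divided by their medians, 151 genes were longer and 131 shorter in Btg4 Het MII. In both libraries 22 were then longer and 22 shorter, of which 17 and 14 were among those reported. Among genes with at least 100 FPKM of Btg4 Het mRNA, 44 of 146 were shorter in wild-type MII, and 142 of 288 were longer and 30 shorter in Btg4 Het MII, because fewer genes were tested. Beyond the 95th percentile of the Btg4 KO pair, 5 were longer and 1 shorter in both. Another 45 recomputed counts, medians and correlations stayed within 1.5 times or within the spread set for them. Division by the medians also moved 75 Btg4 Het log2 ratios, those of named genes and of 10 lists, down by 0.42, and no named gene past 1.5-fold changed sign. No paired analysis was possible because the FGO, wild-type MII and Btg4 Het MII tail groups compared have 1 library each and share fewer than 2 replicate numbers with any other group.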

Other observations

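The relation between FGO tail and footprint change extends beyond the genes with an MII tail. Over 5479 genes with an FGO tail and at least 1 FPKM of footprints, the FGO tail and the MII to FGO footprint change had a Spearman's rho of -0.37. In 4 equal bins by FGO tail, the median tails were 40.1, 50.0, 58.5 and 70.7 nt and the median footprint log2 ratios 1.02, 0.22, -0.43 and -0.93. The order of the bins thus held over all 4, over libraries that share no oocytes by their labels, though genes are not replicates. The FGO footprint level is the denominator of the footprint ratio. The FGO tail had a rho of 0.26 with that level over 6255 genes, and the part of that level in this relation was not tested.

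Members of 1 gene family could differ. Of 15 Fbxw genes with an FGO tail (median 69.9 nt), 5 had values in both MII libraries and none was longer in either. Fbxw24, an oocyte F-box gene, read 70.8 nt in FGO, 54.7 nt in wild-type MII and 35.2 nt in Btg4 Het MII, and Fbxw18 read 70.2, 29.4 and 50.8 nt. Each was shorter by 1.5-fold in only 1 library, and not the same one. Nlrp4a stayed at 48.9, 41.3 and 45.6 nt while Nlrp4f was shorter as reported. These families were picked after their values were seen.

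The largest disagreements between the 2 MII libraries were Gm13084, at 74.7 nt in FGO, 18.9 nt in wild type and 96.8 nt in Btg4 Het, then Ccnb1, and Pfdn4, at 35.5, 32.0 and 105 nt. Ptbp1, a splicing regulator, read 44.8, 54.5 and 171 nt.

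The authors' merged MII column held 893 values, of which 236 belonged to genes with a value in neither MII library. Against FGO it gave 310 longer and 143 shorter genes of 865 (median log2 0.24). In all 170 genes with both values the merged value lay between them.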
